A study of Mus musculus with 3 samples.

Results

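Cytosolic ribosomal protein genes were examined in the RNA-seq profiles of mouse embryonic stem (ES) cells with and without Pcgf1, a Polycomb group protein of a variant PRC1 complex. Genes were taken by name, as Rpl or Rps followed by a number with an optional a, x or l, together with Rplp0, Rplp1, Rplp2 and Rpsa, and names marked as pseudogenes were left out. Of 89 such names in the GENCODE vM21 annotation, 58 stood alone as the gene name of a locus in at least 1 sample, 57 of them in wild-type, 55 in Pcgf1-/- and 54 in rescued cells. The comparisons cover the 53 genes listed in all 3 samples, among 25350 genes so listed. Of these 53 genes, 26 encode proteins of the large subunit, 22 encode proteins of the small subunit and 5 are paralogs (Rpl3l, Rpl7l1, Rpl22l1, Rpl39l and Rps27l).

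The 3 samples were wild-type ES cells of strain C57BL/6 (WT), Pcgf1-/- ES cells, and Pcgf1-/- cells that express FLAG-tagged Pcgf1 again (Pcgf1-/-+Pcgf1, called rescued cells here). Pcgf1 was disrupted with Cas9 and guides against its coding exons, and the mutant line grew from a single colony. The rescued line was made from it by lentiviral infection followed by puromycin selection, so it carries the same mutation as the Pcgf1-/- line. All lines were cultured undifferentiated, on mitomycin-C-treated mouse embryonic fibroblasts in medium with serum and leukemia inhibitory factor. Each condition was sequenced as 1 sample, so no difference below has a replicate check or a test. A comparison of lines also compares single clones and selected populations.

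The ribosome is built from ribosomal RNAs and a set of proteins that enter it mostly in equal numbers, and the cell keeps the messages of these proteins at high levels. The small subunit reads the mRNA and the large subunit joins the amino acids. Many ribosomal protein mRNAs begin with a C followed by a run of pyrimidines, the 5' terminal oligopyrimidine (TOP) motif, through which mTOR and Larp1 govern their translation. Free Rpl5, Rpl11 and several other ribosomal proteins bind Mdm2 and thereby stabilise p53, and several human ribosomal protein genes are mutated in Diamond-Blackfan anaemia. Mouse ribosomal protein genes have many processed pseudogenes, and reads shared with near-identical copies make their levels uncertain.

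Sequences around the annotated start sites are shown for 9 core genes and 3 paralogs, because the start sequence is the feature by which the family is best known. RefSeq promoters (GRCm38.p6, the mm10 assembly) were matched for 44 of the 53 genes. For each gene the annotated start nearest to the first exon of highest FPKM in WT was taken. A TOP start, here a C at the annotated start followed by at least 4 pyrimidines, was found in 10 of 44 genes (22.7%). The same start was found in 3.18% of 409 other genes with a mean of at least 100 FPKM and in 2.37% of 9421 other expressed genes. The 10 genes were Rpl14, Rpl15, Rpl28, Rpl35, Rpl38, Rps6, Rps10, Rps15a, Rps18 and Rps27, and their median run was 8.5 pyrimidines long. In 7 of them, shown from 40 bases before the start to 20 bases from it, capitals mark the run of pyrimidines at the annotated start.
Rps27 (chr3:90213629-90213688, minus strand): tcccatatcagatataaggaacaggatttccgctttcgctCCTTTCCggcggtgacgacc
Rps6 (chr4:86857348-86857407, minus strand): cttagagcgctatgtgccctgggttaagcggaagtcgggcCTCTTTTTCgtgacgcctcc
Rps10 (chr17:27635225-27635284, minus strand): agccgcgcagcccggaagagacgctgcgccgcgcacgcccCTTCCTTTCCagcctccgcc
Rpl35 (chr2:39005112-39005171, minus strand): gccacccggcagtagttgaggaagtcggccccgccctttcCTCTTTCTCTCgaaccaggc
Rpl38 (chr11:114668540-114668599, plus strand): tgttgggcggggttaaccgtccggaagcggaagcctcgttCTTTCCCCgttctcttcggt
Rpl15 (chr14:18270967-18271026, minus strand): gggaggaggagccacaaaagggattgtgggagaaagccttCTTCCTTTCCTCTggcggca
Rpl28 (chr7:4792925-4792984, plus strand): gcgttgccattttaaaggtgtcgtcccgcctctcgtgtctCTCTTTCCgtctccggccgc

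The start sequence of 34 of the 44 genes did not meet this definition. Examples are Rps26 and Rplp0, which were among the most abundant transcripts of the family, and 3 paralogs. In the 5 sequences that follow, no base is in capitals, since the annotated start base was not a pyrimidine.
Rps26 (chr10:128626487-128626546, minus strand): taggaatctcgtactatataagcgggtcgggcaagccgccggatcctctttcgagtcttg
Rplp0 (chr5:115559427-115559486, plus strand): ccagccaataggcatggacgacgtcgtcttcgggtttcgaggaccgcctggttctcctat
Rps27l (chr9:66946046-66946105, plus strand): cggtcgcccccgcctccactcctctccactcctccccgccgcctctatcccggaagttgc
Rpl39l (chr16:10170188-10170247, plus strand): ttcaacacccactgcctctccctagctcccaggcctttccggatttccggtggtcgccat
Rpl3l (chr17:24727786-24727845, plus strand): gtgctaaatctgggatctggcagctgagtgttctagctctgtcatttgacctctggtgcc

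Annotated starts often lie some bases from the start used, and the first exon listed in WT began within 10 bases of the RefSeq start in 40.9% of the 44 genes. Among the genes shown with a TOP start, the annotated start lay at -9 bases from the start of that exon in Rpl35. It lay at -15 in Rps27, 32 in Rps10, -35 in Rps6, 56 in Rpl38, 81 in Rpl15 and 185 in Rpl28, with minus for upstream. A run of at least 8 pyrimidines lay within 20 bases of the annotated start, on the sense strand, in 45.5% of the 44 genes, against 17.8% of the other genes of high level and 15.2% of the other expressed genes. This window was chosen after the sequences were seen. The word CTTTCC within 20 bases of the start, as in Rps27, Rpl38, Rpl28 and also the paralog Rpl39l, was present in 18.2% of the family, against 1.96% and 1.67%. The word CCGGAAG, the core recognised by ETS factors such as Gabpa, stood on either strand of the 300-base window in 43.2% against 24.4% and 15.9%. It can be read in the sequences of Rpl38 and Rps10. The word TATAAA within 50 bases upstream of the start occurred in 2.27% of the family, in Rpl22l1 alone, against 3.18% and 1.76%, and the long YY1 motif on either strand occurred in 0 of the 44 genes, against 1.47% and 1.38%. These matches describe letters in the annotation and show no binding.

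Values are FPKM (fragments mapped to a transcript, divided by its length and by the depth of the library), summed for each gene over its first exons and over its last exons, the larger sum being used. In WT the 53 genes had a median of 1640 FPKM and summed to 102400 FPKM, which was 25.0% of the FPKM of all 25350 genes. In Pcgf1-/- cells the median was 1590 FPKM and the sum 98160 FPKM (24.7%). In rescued cells the median was 1330 FPKM and the sum 89470 FPKM (24.2%). The family thus held close to the same share of the summed signal in each sample, with the lowest share and the lowest median in rescued cells. In each sample 46 of the 53 genes were among the 100 genes of highest FPKM, and 40, 39 and 37 genes exceeded 1000 FPKM in WT, Pcgf1-/- and rescued cells. FPKM divides by transcript length and these transcripts are short, with a median length of 638 bases against 2019 bases for 16625 coding genes. Within the family the shortest was Rpl38 (367 bases) and the longest Rpl22 (2048 bases), and across the 53 genes Spearman's rho between length and FPKM in WT was -0.27, a description over genes that share 1 library.

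**Figure D1:**
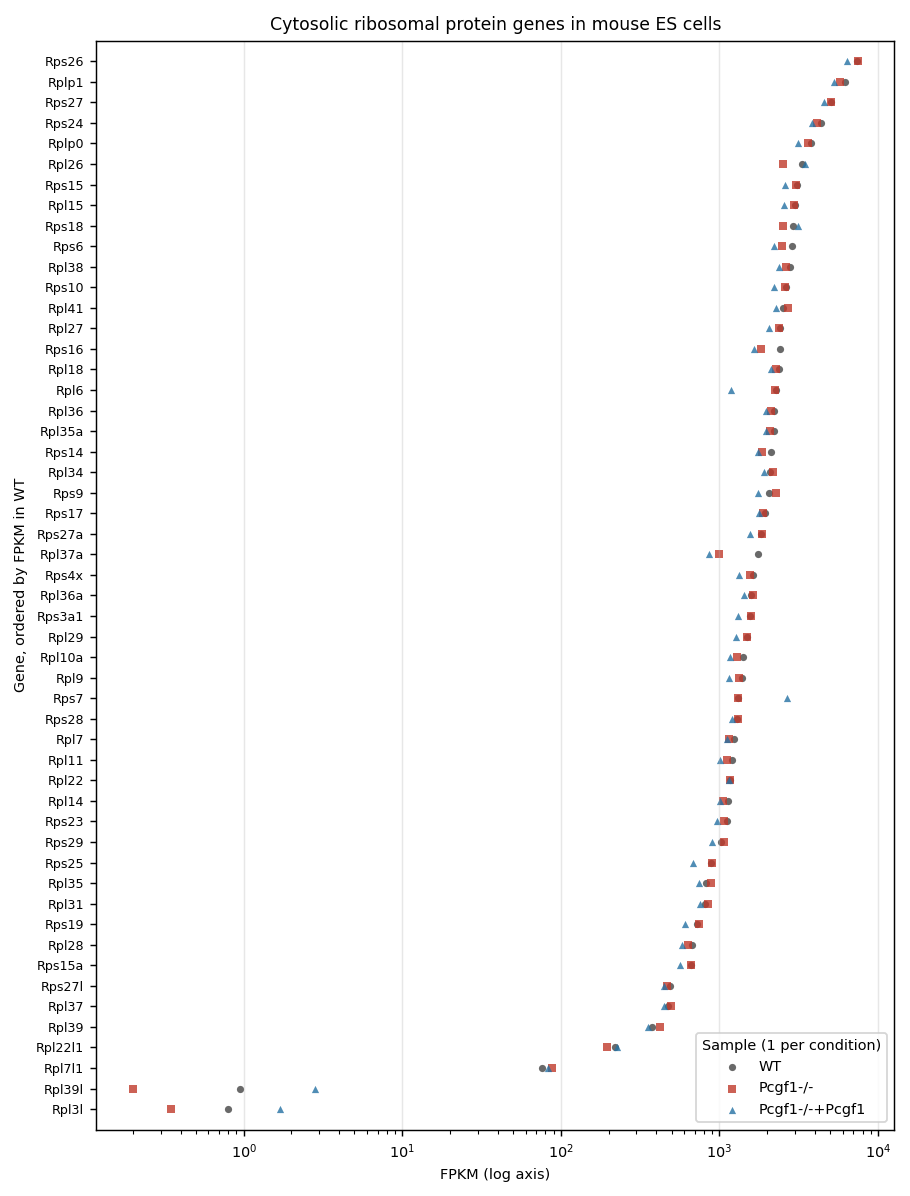
FPKM of 52 of the 53 cytosolic ribosomal protein genes (horizontal log axis) in WT, Pcgf1-/- and rescued cells, 1 sample each, ordered by the level in WT. Symbols of most genes lie close together, with the rescued sample at the left of the 3, while Rps7, Rpl6, Rpl37a, Rpl39l and Rpl3l are spread out.

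In the small subunit, Rps26, a protein near the mRNA exit that is mutated in Diamond-Blackfan anaemia, had the highest level of the family at 7334 FPKM in WT, 7502 in Pcgf1-/- and 6337 in rescued cells. Rps27, a zinc-binding protein with the paralog Rps27l, stood at 5039, 5081 and 4578 FPKM. Rps24 stood at 4381, 4101 and 3816 FPKM. All 3 were lowest in rescued cells, and their WT and Pcgf1-/- values were within 0.10 of each other on the log2 scale. Rps15 followed with 3106, 3053 and 2596 FPKM, and Rps18 with 2903, 2520 and 3141 FPKM. Rps18 was the exception among these 5 genes, since its highest value was in rescued cells. Rps6, the substrate of S6 kinase, had 2852, 2497 and 2221 FPKM.

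In the large subunit the highest levels in WT were those of Rplp1 and Rplp0 of the stalk, the flexible arm that recruits translation factors. Rplp1 had 6234 FPKM in WT, 5783 in Pcgf1-/- and 5319 in rescued cells. Rplp0, which anchors the stalk, had 3761, 3629 and 3134 FPKM. The third stalk gene, Rplp2, shared its locus with a small nucleolar RNA (snoRNA) in every sample, and the locus had 661.3, 665.2 and 625.5 FPKM. In all 3 stalk genes the rescued sample was the lowest. Rpl26, with 3333, 2524 and 3468 FPKM, was instead lowest in Pcgf1-/- cells, and it stood above Rplp0 in rescued cells. Rpl15 had 3005, 2959 and 2574 FPKM and Rpl38 had 2775, 2618 and 2382 FPKM, both in the order seen for the stalk.

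At the other end were the paralogs and a few core genes. Rpl3l, the form of Rpl3 typical of striated muscle, had 0.7964, 0.3462 and 1.70 FPKM, and Rpl39l, the form of Rpl39 known from the male germ line, had 0.9442, 0.1997 and 2.81 FPKM. Both were near 0 in all 3 samples and lowest in Pcgf1-/- cells. Rpl7l1 had 76.01, 87.66 and 82.59 FPKM, Rpl22l1 had 219.7, 196.3 and 226.1 FPKM, and Rps27l, a p53 target gene, had 491.9, 469.3 and 449.0 FPKM. Their core partners were higher in every sample, with Rpl7 at 1246, 1145 and 1124 FPKM, Rpl22 at 1160, 1171 and 1157 FPKM, and Rpl39 at 376.1, 424.5 and 357.1 FPKM. Rpl39 was the lowest of the 48 core genes in WT.

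The first question was whether loss of Pcgf1 moved the family. On the scale of log2(FPKM + 0.1), the 53 genes had a median difference of -0.04 between Pcgf1-/- and WT cells, with quartiles of -0.10 and 0.03. Of the 53 genes, 31 were lower and 22 higher in Pcgf1-/- cells, and 48 (90.6%) differed by less than 1.2-fold, a narrow limit chosen after the values were seen. Past 2-fold, 0 genes were higher and 2 were lower, Rpl39l (-1.80) and Rpl3l (-1.01). Among all 25350 genes 7.14% passed 2-fold in either direction, 2.16% higher and 4.98% lower, and among the 516 other genes with a mean of at least 100 FPKM 2.33% did. The 516 genes share a floor of 100 FPKM with the family but were not matched to its levels. In WT 46 of the 53 genes were among the 100 genes of highest FPKM. The median difference of the 516 genes was -0.03, and 55.4% of them were lower in Pcgf1-/- cells. Within 1.2-fold stayed 71.5% of them, against 94.0% of the 50 ribosomal protein genes above the same floor. Of all 25350 genes, many of them at 0 in both samples, 32.7% were lower in Pcgf1-/- cells.

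The large and small subunits stood close together in this comparison, with medians of -0.05 over 26 genes and 0.00 over 22 genes. The largest positive differences were those of Rpl7l1 (0.21), Rpl39 (0.17), Rps9 (0.17), Rpl35 (0.11) and Rpl41 (0.10). Rps9, which lies at the mRNA entry of the small subunit, had 2042, 2292 and 1756 FPKM in WT, Pcgf1-/- and rescued cells. Rpl35, near the exit of the peptide tunnel, had 822.5, 886.3 and 744.5 FPKM, and Rpl41, the smallest ribosomal protein, had 2535, 2712 and 2285 FPKM. Rps9, Rpl35 and Rpl41 were each highest in the mutant and lowest in rescued cells. The genes furthest below WT after the paralogs were Rpl37a (-0.83), Rpl26 (-0.40) and Rps16 (-0.39).

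**Figure D2:**
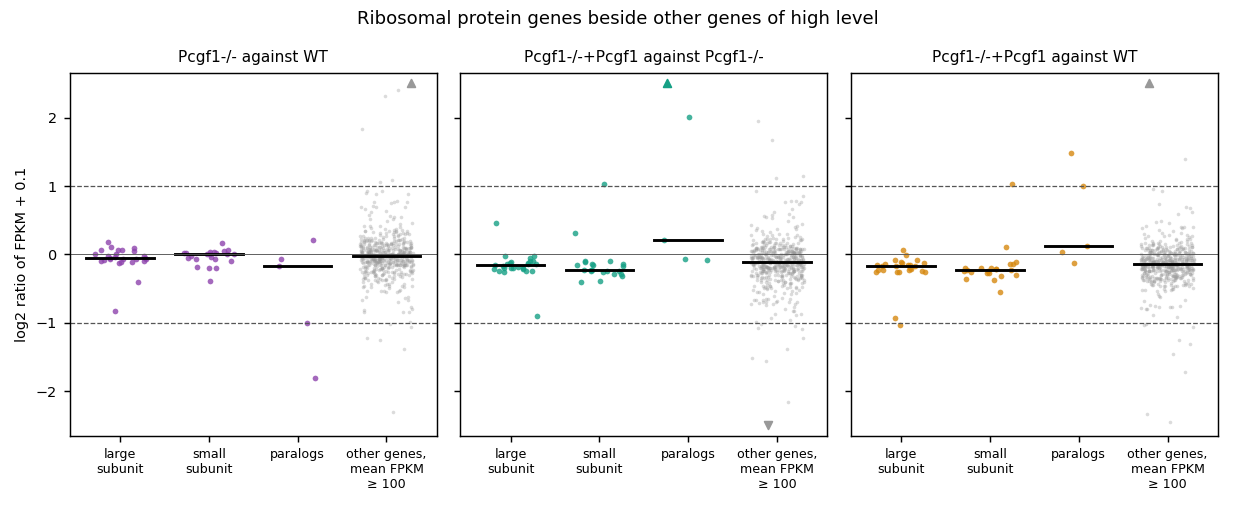
Difference in log2(FPKM + 0.1) for the large-subunit, small-subunit and paralog genes and for 516 other genes with a mean of at least 100 FPKM, in the 3 comparisons. Points are genes, black bars are medians, dashed lines are 2-fold, and triangles stand for values beyond the axis. Most ribosomal protein genes sit in a narrow band near 0 in the left panel and in a band just below 0 in the other panels.

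The second question was what happened when Pcgf1 was expressed again. The family had a median difference of -0.16 between rescued and Pcgf1-/- cells, with quartiles of -0.24 and -0.10, equal to a median ratio of 0.896. Of the 53 genes, 47 were lower and 6 higher in rescued cells, and 42 differed by less than 1.2-fold. Genes lower by any amount made up 24.1% of all genes and 68.2% of the 516 other genes of high level, whose own median difference was -0.11. Of those 516 genes 67.4% stayed within 1.2-fold, against 82.0% of the 50 ribosomal protein genes above the same level. Past 2-fold, 3 genes were higher (Rpl39l at 3.28, Rpl3l at 2.01 and Rps7 at 1.03) and 0 were lower. With the smaller of the first-exon and last-exon sums where both were above 0, a setting added after the values were seen, 1 gene was higher (Rpl39l) and 1 lower (Rps25 at -2.00). Among all genes 8.57% passed 2-fold, 6.35% higher and 2.22% lower, and 2.71% of the 516 other genes of high level did. The subunits had medians of -0.16 (large) and -0.23 (small).

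Against WT, the rescued cells had a median difference of -0.20 over the 53 genes, with 46 lower and 7 higher. The 516 other genes of high level had a median of -0.14, and 75.4% of them were lower in rescued cells, as were 31.2% of all genes. Within 1.2-fold stayed 68.6% of the 516 genes and 80.0% of the 50 ribosomal protein genes above the same level. Past 2-fold were Rpl39l (1.48), Rps7 (1.04) and Rpl3l (1.005) on the higher side and Rpl37a (-1.04) on the lower, 4 of 53 genes. With the smaller of the sums, 1 gene was higher (Rpl39l) and 2 were lower (Rpl37a and Rps25 at -1.98). As background, 6.34% of all genes (3.99% higher and 2.36% lower) and 2.13% of the 516 other genes passed 2-fold by the larger sum. Both rescue comparisons use the rescued sample, so they are not separate evidence. Scaling bears on these medians. With each sample rescaled to the same sum over all genes, the medians against Pcgf1-/- and WT cells became -0.06 and -0.05, and with median-of-ratios scaling they were -0.18 and -0.11. The median between Pcgf1-/- and WT cells became 0.00 and 0.07, so its sign depended on the scaling. Median-of-ratios scaling moved the differences of all genes between Pcgf1-/- and WT cells by 0.11, and rescaling to the same sum moved those of the rescue comparisons by 0.10 and 0.15.

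Among the largest negative differences between rescued and Pcgf1-/- cells were those of Rpl6 (-0.90), Rps25 (-0.40), Rps9 (-0.38) and Rps19 (-0.29). Rps19, the first gene found mutated in Diamond-Blackfan anaemia, had 718.5, 743.6 and 607.6 FPKM in WT, Pcgf1-/- and rescued cells. In this gene WT and Pcgf1-/- cells were close and rescued cells were lowest. Beyond the 3 genes past 2-fold, the positive side held Rpl26 (0.46), Rps18 (0.32) and Rpl22l1 (0.20).

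The genes that stood apart were examined exon by exon, since the files list the first and last exon of each assembled transcript with its FPKM. Rpl37a (chr1:72711290-72713813, plus strand), a zinc-finger protein of the large subunit, had 1764 FPKM in WT, 991.2 in Pcgf1-/- and 860.7 in rescued cells. Its last exon ended at position 72713558 in WT and 251 bases further on, at 72713809, in the other samples, and its first exon began 26 bases later there. The last exon of the model was thus 57 bases long in WT and 308 bases long in the others. FPKM is computed per length of the model, and the part of this change of model in the difference was not tested.

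Rps7 (chr12:28630854-28635953, minus strand), one of the proteins that bind Mdm2, had 1302 FPKM in WT and 1304 in Pcgf1-/- cells, by first and last exons alike. In rescued cells its first exon carried 2669 FPKM and its last exon 773.8 FPKM, although the exon ends were the same as in the other samples. The last-exon sum alone would place the rescued sample below the other 2 samples, so the direction for Rps7 depended on the exon used.

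Rpl6 (chr5:121204481-121209241, plus strand) had 2264, 2230 and 1193 FPKM from its first exon and 0 from its last exons in every sample. Rpl26 (chr11:68901583-68906989, plus strand), which also binds the p53 mRNA, likewise had 0 from its last exons in every sample. Its first exon began at position 68901520 in rescued cells and at 68901583 in the other samples. For both genes the value rests on the first exon only. In Rps16, the first-exon sum of 2410 FPKM in WT was divided between last exons of 669.3 and 1741 FPKM, while Pcgf1-/- and rescued cells had 1 last exon of 1835 and 1644 FPKM. The shared last exon of Rps16 was thus 1741, 1835 and 1644 FPKM, a smaller spread than that of the gene.

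Rps25 had 891.2 and 905.0 FPKM in WT and Pcgf1-/- cells. In rescued cells its first exon carried 225.9 FPKM and its last exon 686.2 FPKM, with ends 465 and 30 bases away from those of the other samples. Rps18 (chr17:33951999-33956001, minus strand) had a transcript with a retained intron at 305.5 FPKM in Pcgf1-/- cells, and its last exon was listed at 0 in WT and Pcgf1-/- cells and at 1644 FPKM in rescued cells. Of the 7 genes described here, Rps7 alone had both a first and a last exon expressed with the same ends in all samples.

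**Figure D3:**
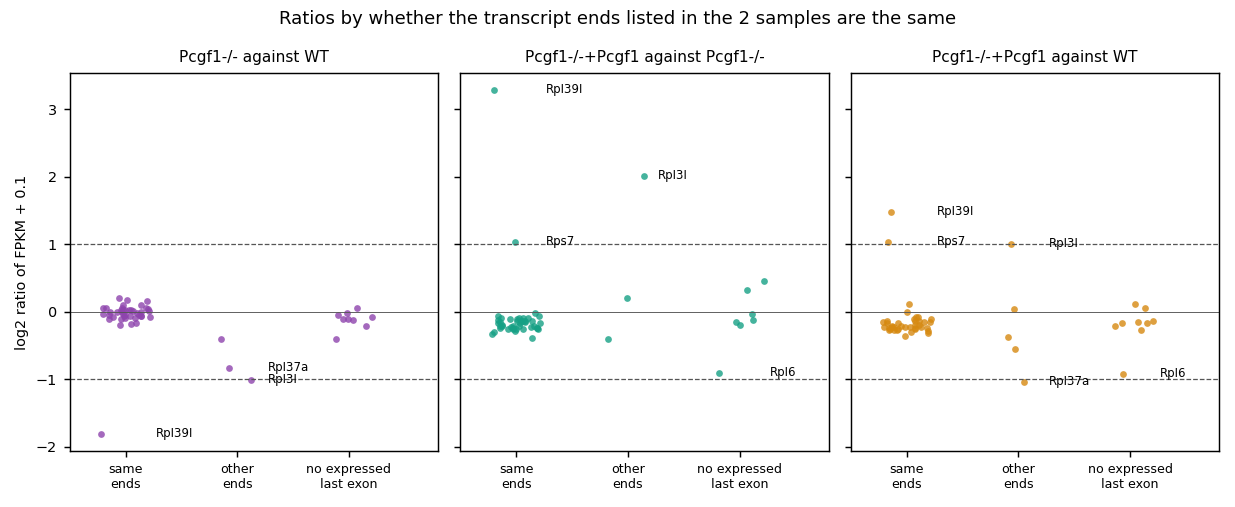
Difference in log2(FPKM + 0.1) of the 53 genes in the 3 comparisons, divided into genes whose expressed first and last exons had the same outer ends in both samples, genes with other ends, and genes with no expressed last exon in at least 1 of the samples. Genes past 1.5-fold are named, and dashed lines are 2-fold. Genes with the same ends cluster tightly apart from Rpl39l and Rps7.

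Restricted to genes with the same exon ends in both samples, the median was 0.00 over 41 genes between Pcgf1-/- and WT cells, and 97.6% of these genes stayed within 1.2-fold, all but Rpl39l. Between rescued and Pcgf1-/- cells the median was -0.17 over 43 genes with 86.0% within 1.2-fold, and between rescued and WT cells it was -0.21 over 39 genes with 82.1% within 1.2-fold. This restriction was chosen after the values were seen.

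The low paralogs rest on little sequence. In each sample the lowest values of long genes with a single annotated transcript formed a step at 0.0488 to 0.0517 FPKM times kilobases, taken as 1 fragment, which corresponds to about 19300000 fragments in WT, 20500000 in Pcgf1-/- and 20100000 in rescued cells. Rpl39l (chr16:10170226-10174911, plus strand) then rests on about 12, 3 and 38 fragments in WT, Pcgf1-/- and rescued cells. Rpl3l (chr17:24727820-24736143, plus strand) rests on about 16, 7 and 35 fragments by its larger sum, and its first exon began at another position in each sample. In rescued cells the first exon of Rpl3l carried 1.699 FPKM and its last exon 0.5851 FPKM. By first and last exons alike it had 0.7964 FPKM in WT and 0.3462 in Pcgf1-/- cells. The last exon alone would place rescued cells below WT, so the direction of Rpl3l against WT depended on the exon used. Both paralogs thus rest on few fragments, fewest in Pcgf1-/- cells. At a pseudocount of 1 FPKM 0 genes of the family passed 2-fold between Pcgf1-/- and WT cells. Between rescued and Pcgf1-/- cells 3 genes still passed at this pseudocount, and between rescued and WT cells 2 did.

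The files also list exon and intron events. In WT the first-exon and last-exon sums were equal within 1% in 43 of the 53 genes, and 45 genes had 1 expressed first exon. In Pcgf1-/- cells these numbers were 45 and 44 genes, and in rescued cells 42 and 45 genes. Introns with a retained form were listed for 9 genes (Rpl7, Rpl10a, Rpl18, Rpl34, Rpl41, Rps16, Rps18, Rps27 and Rps27a), and the retained form stood at 0 FPKM in all of them except Rps18 in Pcgf1-/- cells. Among exons that can be skipped, Rps10 alone had both forms expressed. Its exon at chr17:27631200-27631255 was included at 1332 FPKM in WT, 1198 in Pcgf1-/- and 1229 in rescued cells, and skipped at 1318, 1386 and 974.3 FPKM. Included and skipped forms were thus near equal in WT, the skipped form was higher in Pcgf1-/- cells and the included form in rescued cells. Optional exons of Rpl22, Rpl27, Rps19, Rps27 and Rps27l carried 0 FPKM in every sample.

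A further 23 genes of the family appeared only in loci listed under several names, which the rule does not count. In 20 of these loci the other name was that of a snoRNA, many of which lie in introns of ribosomal protein genes. Another 5 genes, among them Rpl8, Rpl17, Rpl23 and Rps12, stood alone in some samples and under several names in others. Taken as whole loci, all 28 had signal in every sample. Their median differences were -0.05 between Pcgf1-/- and WT cells, -0.17 between rescued and Pcgf1-/- cells and -0.22 between rescued and WT cells, close to those of the 53 genes. Past 2-fold, 3 of the 28 loci were higher and 0 lower in Pcgf1-/- than in WT cells, against 2.16% and 4.98% of all genes. Between rescued and Pcgf1-/- cells 0 were higher and 2 lower, against 6.35% and 2.22%. Between rescued and WT cells 1 was higher and 0 lower, against 3.99% and 2.36%. The remaining 8 names, Rpl13 and 7 minor copies, were not analysed here.

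Several well-known genes lay in these loci. Rps12 had 6313 FPKM in WT, 6583 in Pcgf1-/- and 4970 in rescued cells. Rpsa, which is also the laminin receptor, had 1659, 1709 and 1419 FPKM, and Rps2 had 4554, 4490 and 3702 FPKM. Each was lowest in rescued cells, with WT and Pcgf1-/- close. Of the Mdm2-binding proteins, Rpl5 had 1761, 1151 and 1494 FPKM, Rpl11, measured alone, had 1195, 1117 and 1014 FPKM, and Rpl23 had 1201, 1143 and 1116 FPKM. Rpl5 was lowest in Pcgf1-/- cells, where its first exons carried 1151 FPKM and its last exons 754.4 FPKM.

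**Figure D4:**
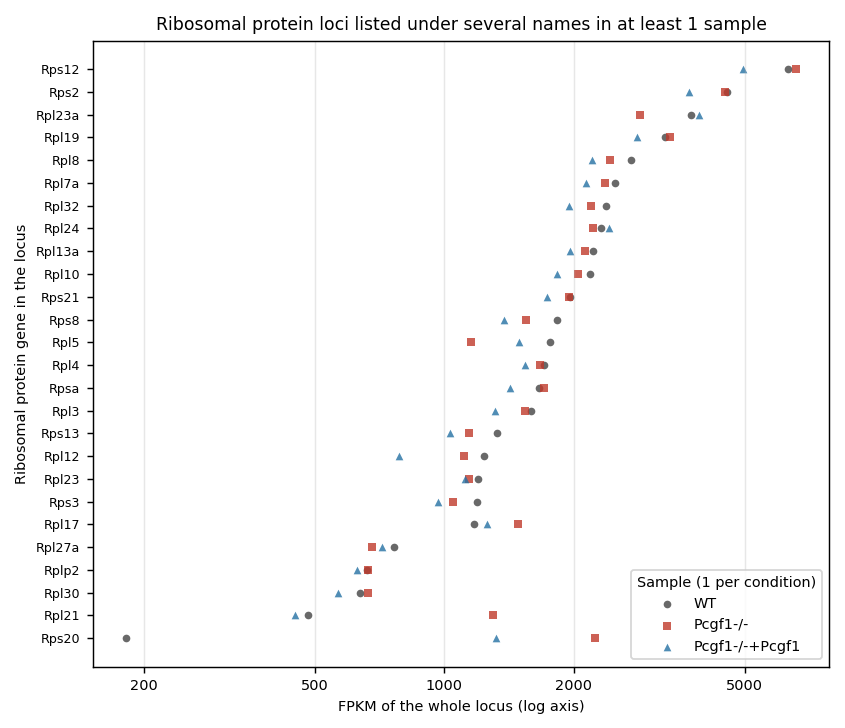
FPKM (log axis) in the 3 samples for 26 of the 28 ribosomal protein loci that were listed under several names in at least 1 sample. Rps20, Rpl21 and Rpl17 in Pcgf1-/- cells lie clearly to the right of the other samples, and most other loci lie lowest in rescued cells.

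Outside the naming rule, Fau and Rpl36al were in the table of 25350 genes. Fau, which encodes Rps30 fused to a ubiquitin-like protein, had 1494, 1480 and 1230 FPKM in WT, Pcgf1-/- and rescued cells, in the order of the family. Rpl36al was listed at 0 in each sample, while Rpl36a had 1573, 1642 and 1439 FPKM. All 5 listed ribosomal protein pseudogenes also stood at 0 in every sample.

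Other genes of translation were compared as whole lists. Of 64 mitochondrial ribosomal protein genes, 0 were higher and 2 lower past 2-fold in Pcgf1-/- cells, Mrps35 with 51.91, 10.82 and 28.60 FPKM and Mrps26 with 91.89, 33.97 and 46.72 FPKM. The list had medians of -0.06 between Pcgf1-/- and WT, 0.01 between rescued and Pcgf1-/- and -0.05 between rescued and WT cells. Of 14 other TOP mRNAs, among them Eef2 and Npm1, 0 passed 2-fold in any comparison, and the medians were -0.09, -0.05 and -0.17. For 29 initiation factor genes 0 passed and the medians were -0.04, -0.01 and -0.11, and for 7 elongation and termination genes 0 passed and the medians were -0.15, 0.06 and -0.20. In the comparison of rescued with Pcgf1-/- cells, all of these medians lay above the -0.16 of the cytosolic ribosomal proteins. The lists share genes, such as Eef1g and Eef2 between TOP mRNAs and elongation and Pabpc1 between TOP mRNAs and initiation, so they are not separate observations.

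Genes that make ribosomes did not all share the direction of the cytosolic ribosomal proteins. Of 46 ribosome biogenesis genes, 0 passed 2-fold in any comparison. Their medians were 0.00 between Pcgf1-/- and WT, 0.11 between rescued and Pcgf1-/- and 0.10 between rescued and WT cells. In each of the rescue comparisons 35 of 46 genes were higher in rescued cells. All genes above 0 in either sample had medians of -0.12, 0.05 and -0.07 in these comparisons. Of them 55.4% were higher in rescued than in Pcgf1-/- cells, and 42.8% were higher in rescued than in WT cells. Of 8 genes of the RNA polymerase I machinery, which transcribes ribosomal RNA, Polr1a alone passed 2-fold, with 21.77, 19.95 and 44.11 FPKM in WT, Pcgf1-/- and rescued cells. Of 7 ribosomal protein chaperone genes 0 passed, with medians of 0.05, -0.06 and -0.15.

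Among 17 regulators of the family, Myc, a transcription factor that acts on ribosome genes, had 30.28 FPKM in WT, 65.52 in Pcgf1-/- and 23.15 in rescued cells, and was the only one past 2-fold. Its relative Mycn had 157.6, 88.30 and 128.1 FPKM. Pcgf1-/- cells thus held the highest Myc and the lowest Mycn value. Rescued cells were below WT in 16 of the 17 regulators, Myc and Mycn among them, and in 57.1% of genes above 0 in either sample. Mtor, with 13.19, 10.72 and 11.48 FPKM, and Larp1, with 80.22, 92.77 and 92.06 FPKM, differed less. Of 13 genes of the p53 pathway 1 passed 2-fold, Perp, with 16.95, 43.73 and 14.03 FPKM. The list had medians of -0.14, -0.34 and -0.31, and 12 of 13 genes were lower in rescued than in Pcgf1-/- cells. Lower in that comparison were also 44.6% of genes above 0 in either sample and 68.2% of the 516 other genes of high level. The gene of the list that was higher was Trp53 itself, with 314.5, 264.3 and 345.3 FPKM. Of 6 common reference genes 0 passed 2-fold, with medians of -0.11, -0.14 and -0.29. Gapdh, for example, had 4768, 4666 and 3763 FPKM, so these genes too were lowest in rescued cells.

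**Figure D5:**
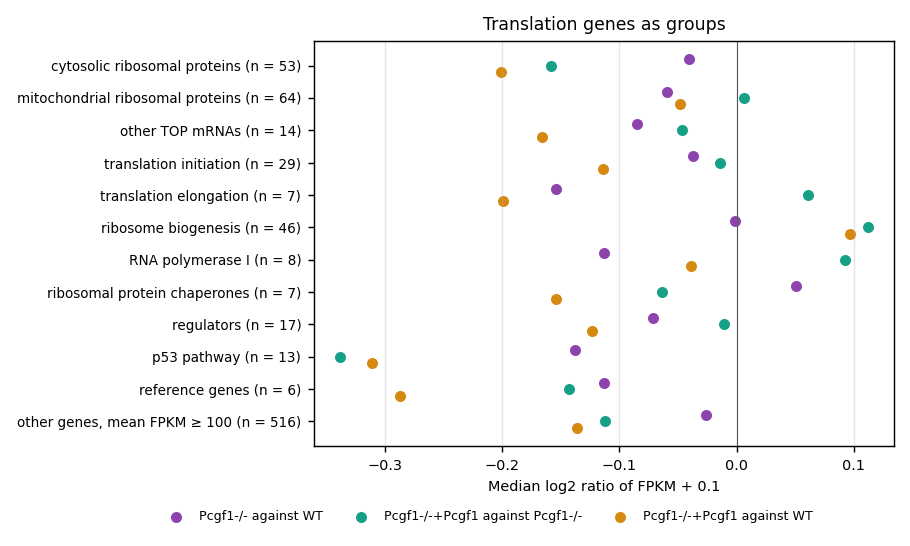
Median difference in log2(FPKM + 0.1) for the cytosolic ribosomal protein genes and other whole gene lists in the 3 comparisons, with the number of genes of each list in the table. Between rescued and WT cells the cytosolic ribosomal proteins (-0.20) lie below the ribosome biogenesis genes (0.10) and above the reference genes (-0.29).

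As a check of the labels, Pcgf1 itself had 13.95 FPKM in WT, 5.88 in Pcgf1-/- and 7.86 in rescued cells. The sum covers whole transcripts, so it does not show the edited exons. Of 12 ES cell markers 10 were in the table, all above 0, with Pou5f1 at 669.5, 518.3 and 625.9 FPKM. Past 2-fold, 1 ES cell marker, Dppa3, was lower in Pcgf1-/- than in WT cells and 0 were higher, 2 (Dppa3 and Nanog) were higher and 0 lower in rescued than in Pcgf1-/- cells, and 0 passed between rescued and WT cells. Dppa3 had 38.30, 17.48 and 60.14 FPKM and Nanog 68.23, 46.34 and 123.0 FPKM, while Zfp42, with 35.47, 51.68 and 35.75 FPKM, was highest in Pcgf1-/- cells. Of 23 markers of fibroblasts, the feeder cells, 20 were in the table and 19 above 0, and their summed level was 299.0, 318.8 and 315.6 FPKM, most of it from Sparc (227.3, 266.0 and 254.0) and Vim. Defining collagens were near 0, with Col1a1 at 1.88, 0.390 and 2.21 FPKM. Past 2-fold, 5 of the 20 fibroblast markers were lower in Pcgf1-/- than in WT cells and 0 higher. Among all genes 4.98% were lower and 2.16% higher there. Of these 5 markers, Thy1 had 14.21, 6.389 and 13.46 FPKM, while Col1a1, Col1a2, Col6a1 and Pdgfrb were near 0. In rescued against Pcgf1-/- cells 6 markers were higher and 1 lower, and among all genes 6.35% were higher and 2.22% lower. The part of the markers of either kind in the ribosomal protein values was not tested. In bulk RNA, fewer cells of a type and less RNA per cell cannot be told apart.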

How the data were processed

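RNA-seq of poly(A) RNA from 3 ES cell samples was analysed. The authors mapped reads to mm10 with TopHat2 2.0.12, and the processing notes also name Cufflinks 2.2.1 and HTSeq 0.6.0. The deposited files list transcript events (first exons, last exons, skipped exons, retained introns) with FPKM values. The program that listed them and the treatment of reads with several matches are not given in the sources used here. Depth is not given, but was estimated from the lowest values. Counts were not used, so no count test was run.

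FPKM was summed per gene over first exons (TSS) and last exons (TTS) of loci with 1 name, leaving out names that were turned into dates, and the larger sum was kept. Samples were compared as log2 ratios of FPKM + 0.1, called past 2-fold. Genes were named if among the 5 highest of a subunit, the 5 most moved in either direction, past 2-fold, or in a fixed paralog, stalk or Mdm2-binder list, and genes of related lists mainly if past 2-fold. A few well-known genes, such as Rps2, Rps6, Rps12, Gapdh and Larp1, were named after their values were seen. Results for some single genes are not reported here, although these genes stay in the counts and medians. Members and lists were chosen with earlier results of these data known. The calling step was first checked on simulated data with planted changes well past the limit. Low values and changed exon models were not simulated, so that check says nothing about calls for such genes. Alternatives covered pseudocount, low-value filter, exon sums, scaling, paralogs, fold limit, several-name loci and exon ends. Python 3.11.15, pandas 2.3.3, numpy 2.4.6, scipy 1.17.1 and matplotlib 3.10.9 were used, with GENCODE vM21 and RefSeq promoters.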

Additional observations from a re-analysis of the deposited data

Results flagged for a closer look

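Loci listed under several names stand outside the 53 genes compared, and those of Rps20 and Rpl21 were among the loci past 2-fold. The locus of Rps20 had 181.7 FPKM in WT, 2248 in Pcgf1-/- and 1316 in rescued cells, a difference of 3.63 on the log2 scale between Pcgf1-/- and WT cells, and its first exons were listed at 0 in WT. The locus of Rpl21 had 481.4, 1299 and 448.2 FPKM, a difference of -1.54 between rescued and Pcgf1-/- cells. The difference has no replicate check in either locus.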

How the results depend on the processing

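Of 75 values recomputed under 13 alternatives, 10 planned and 3 added after the data were seen, 60 stayed close to those reported. Another 14 moved and 1 moved with a change of sign. Some of the 60 could hardly move. Leaving out genes at 0 in a sample removed none of the 53 genes, and the other pseudocounts left the medians as they were. A small change of a count could also be counted as close, as from 2 to 3 genes between Pcgf1-/- and WT cells at a limit of 1.5-fold. Medians counted as moved at a shift of 0.1 or more, a limit also set after first values were seen. The median between Pcgf1-/- and WT cells became 0.07 with median-of-ratios scaling. It also crossed 0, to 0.003 with each sample rescaled to the same sum and to 0.002 with the same exon ends. Both of these shifts were below the limit and counted as close. With each sample rescaled to the same sum, the medians of rescued against Pcgf1-/- and WT cells became -0.055 and -0.054. The count past 2-fold between Pcgf1-/- and WT cells, 2 genes, became 0 with a pseudocount of 1 FPKM or without paralogs, 1 with a mean of at least 1 FPKM, median-of-ratios scaling or the same exon ends, 4 with last-exon sums only and 5 with several-name loci included. Between rescued and Pcgf1-/- cells the 3 genes became 1 without paralogs and 5 with several-name loci. Between rescued and WT cells the 4 genes became 2 with a pseudocount of 1 FPKM, without paralogs or with the same exon ends. Only totals were compared in this count, and the split by direction depended on the exon sum. Of genes higher and lower, rescued against Pcgf1-/- cells gave 3 and 0 as reported, 3 and 1 with first-exon sums only, 2 and 0 with last-exon sums only and 1 and 1 with the smaller sum. Rescued against WT cells gave 3 and 1 as reported, then 3 and 2, 4 and 1, and 1 and 2. With last-exon sums only, the higher genes included Rpl14 and Rpl28 against WT and Rps18 in both rescue comparisons, whose last exons were listed at 0 in the comparison sample. Where the setting does not itself remove genes, the cause was not tested. No paired analysis was possible because each condition has 1 sample. Values near 1 FPKM rest on few fragments.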
